A study of Mus musculus with 40 samples.

Results

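The genes examined encode the 7 core proteins of non-homologous end joining that V(D)J recombination uses: Xrcc5, Xrcc6, Prkdc, Dclre1c, Xrcc4, Lig4 and Nhej1. They were chosen by symbol and matched through their Ensembl identifiers, and all 7 of 7 were found among the 21958 genes of the count table. The data are RNA counts from 40 libraries of 100 sorted bone marrow B-lineage cells each, taken from 10 chimeric mice. Lethally irradiated CD45.1 hosts had been given wild-type (WT) marrow or marrow homozygous for P198A (P198A/P198A, made by CRISPR/Cas9), with 5 mice of each kind, and donor cells (CD45.2+ CD45.1-) were sorted 8 weeks later. The study concerns ZIP7, the product of Slc39a7, which moves zinc out of the endoplasmic reticulum. P198A is a missense allele of it, although the sample titles shorten the mutant group to KO.

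Every mouse gave 1 library of each of 4 Hardy fractions, so each genotype and fraction was a group of 5 libraries. FrB are pro-B cells (B220+ CD43+ CD24+ BP1-), FrD late pre-B cells (B220+ CD43- IgM- IgD-) and FrE immature B cells (B220+ CD43- IgM+ IgD-), and for FrC no gate is given in the sources used here. All groups share the irradiated host and the transfer. How many donors supplied the 5 mice of a genotype, and how old the mice were, the sources used here do not say. The B-lineage markers Cd79a, Cd79b, Pax5 and Ebf1 had counts in all 40 libraries.

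V(D)J recombination cuts the DNA at immunoglobulin gene segments and then joins the ends. The RAG recombinase makes the cuts, and the Ku heterodimer binds the broken ends and draws in the kinase DNA-PKcs with the nuclease Artemis, which opens the hairpins that cutting leaves. XRCC4, DNA ligase IV and XLF then seal the joint. In developing B cells the heavy chain gene is assembled at the pro-B stage and the light chain genes at the pre-B stage.

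Sequence upstream of the start sites is shown for the Ku genes and Lig4, because Xrcc6 and Lig4 had the steepest falls between fractions below while Xrcc5, the partner of Xrcc6, did not follow. The RefSeq promoter table (GRCm38.p6) held 6 of the 7 genes, all but Prkdc, and its starts for these 6 each matched a GENCODE M21 transcript. In the 250 bases before each start, both strands were searched for the GC box GGGCGG, the CCAAT box CCAAT, the palindrome GCGCATGCGC bound by NRF1, the E-box CACCTG and the FOXO core GTAAACA. Capitals mark a match on either strand. The Xrcc6 window held 3 GC boxes and none of the other motifs. Both stretches of it lie on the plus strand of chromosome 15, at chr15:82016188-82016217 and chr15:82016248-82016277. They are inside the annotated gene, which begins at 81987835, and the bases before that position were not searched.
Xrcc6, upstream stretch: aacagggggcagGGGCGGggacgcactttc
Xrcc6, nearer stretch: ggGGGCGGagcttcaagcgagGGGCGGggc
The 250 bases before the Xrcc5 start, at chr1:72307171-72307420 on the plus strand, held no GC box and 1 CCAAT box, read on the opposite strand 169 bases before the start.
Xrcc5: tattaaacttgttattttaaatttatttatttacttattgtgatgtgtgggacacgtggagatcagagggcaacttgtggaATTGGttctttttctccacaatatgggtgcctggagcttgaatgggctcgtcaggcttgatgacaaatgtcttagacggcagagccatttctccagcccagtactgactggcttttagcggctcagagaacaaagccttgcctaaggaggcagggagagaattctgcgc
Lig4 has 2 starts in the table, on the minus strand of chromosome 8. The stretch before the outer start, at chr8:9977715-9977744, carries the NRF1 palindrome, and the 250 bases before the inner start, at chr8:9976312-9976561, carry 2 GC boxes.
Lig4, outer start: gcacccctatGCGCATGCGCaggacactgg
Lig4, inner start: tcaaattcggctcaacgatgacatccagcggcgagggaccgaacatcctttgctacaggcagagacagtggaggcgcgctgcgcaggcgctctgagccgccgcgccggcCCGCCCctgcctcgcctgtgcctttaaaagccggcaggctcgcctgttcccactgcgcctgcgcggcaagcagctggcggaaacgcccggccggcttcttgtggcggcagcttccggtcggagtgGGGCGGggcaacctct
Of all 32851 RefSeq windows of this length, 32.7% held a GC box, 33.8% a CCAAT box and 0.782% the NRF1 palindrome, while 17.2% held the E-box and 3.17% the FOXO core, neither of which was in a window of the 6 genes. GC boxes also stood before the starts of Xrcc4 (3), Nhej1 (2) and Dclre1c (1), so they were not particular to Xrcc6 and Lig4. A link between motifs and levels was not tested. These matches are letters in a window, and no binding was measured.

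Libraries held between 42111 and 43372070 endogenous counts, the median being 16474388 and the second lowest 1723215. Libraries with more than 15% of their detected genes at 1 to 9 counts, 10 in all, are called low-complexity libraries below. WT FrD mouse 3 and WT FrE mouse 7 were 2 of these. The other 8 were mutant: mice 4, 8, 9 and 10 in FrB, mice 5, 9 and 10 in FrC, and mouse 9 in FrE. Levels are given in counts per 1000000 endogenous counts (CPM), and levels are compared between genes only per kilobase of exon (CPM per kb). Differences are log2 fold changes with their standard error (SE) from the quasi-likelihood test of edgeR, and a call needs an adjusted p (Benjamini-Hochberg, over all genes tested) under 0.05. All 7 genes passed the filter on low counts in all 14 comparisons. In libraries of pooled cells, fewer cells of a type and less RNA per cell cannot be told apart.

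Of the 7 genes only Xrcc6 was called in any of the 14 comparisons by this test, and only in WT cells. It encodes Ku70, the subunit that with Ku80 forms the ring around a broken end. The gene (ENSMUSG00000022471) lies on the plus strand of chromosome 15 from 81987835 to 82040085. It rose from FrC to FrD and fell from FrD to FrE, and its level was highest in FrD, the late pre-B cells. No library lacked its counts.

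In WT FrB, Xrcc6 stood at 360.2, 299.6, 291.0, 234.2 and 343.9 CPM in mice 1, 2, 3, 6 and 7. In WT FrC the same mice had 347.7, 273.7, 314.4, 479.6 and 342.6 CPM. In WT FrD they had 642.0, 727.3, 592.9, 709.4 and 1198.9 CPM, and in WT FrE 66.9, 145.5, 150.5, 133.2 and 225.5 CPM. Every FrD library thus lay above every library of the other WT fractions, and every FrE library below them, while FrB and FrC overlapped. Means were 306 ± 49.5 in FrB, 352 ± 77.4 in FrC, 774 ± 243 in FrD and 144 ± 56.4 CPM in FrE (SD, n = 5 each).

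**Figure D1:**
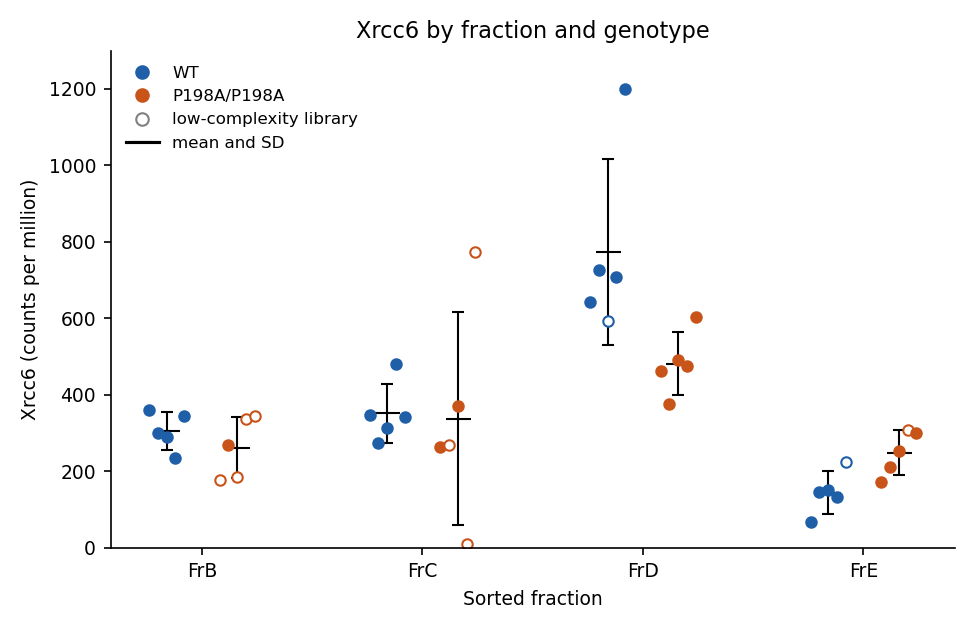
Xrcc6 in CPM (linear axis) in the 4 sorted fractions, with 1 point per library, blue for WT and orange for P198A/P198A, open for low-complexity libraries, and black bars for the mean and SD of 5 libraries. WT libraries run from 592.9 to 1198.9 CPM in FrD and from 66.9 to 225.5 CPM in FrE, and the mutant libraries from 376.8 to 604.4 and from 172.5 to 308.7 CPM.

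From FrC to FrD the WT change in Xrcc6 was 1.39 ± 0.30 (log2, SE, adjusted p = 0.007348, edgeR), a 2.6-fold rise, and it was higher in FrD in 5 of 5 mice. This was 1 of 7 end-joining genes called, and 5.23% of all 11439 genes tested were called in this step. Levels that did not overlap, higher in FrD, were seen in 2.71% of genes. Without WT mouse 2 the change was 1.37 and missed the threshold (adjusted p = 0.05835). From FrD to FrE it fell by 2.43 ± 0.31 (log2, SE, adjusted p = 6.325e-05, edgeR), which is 5.4-fold, in 5 of 5 mice. Again 1 of the 7 genes was called, against 5.32% of all genes, and levels that did not overlap, lower in FrE, were seen in 1.77% of genes. From FrB to FrC the change was 0.12 ± 0.29 (log2, SE), with 0 of 7 end-joining genes called by edgeR or DESeq2, 0 at an unadjusted p under 0.05 and 0.166% of all genes called.

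Those values are relative to the other genes of the same library. The ratio of endogenous to spike-in (ERCC) counts moved with the first of the steps: when libraries were scaled to the spike-ins the median of all genes from FrC to FrD was -2.39, and Xrcc6 stood at -1.13 (log2, adjusted p = 0.08226, edgeR), which is 1.26 above that median. From FrD to FrE the median was 0.29 on the spike-in scale and Xrcc6 stood at -2.04 (adjusted p = 0.05282, edgeR), -2.34 relative to it. Markers of other cells varied within WT FrD and FrE. All 11 granulocyte and monocyte markers were detected, and their sum ran from 46.2 to 74854 CPM in FrD and from 40.3 to 6030 CPM in FrE. The 9 erythroid markers summed to between 147 and 32747 CPM in FrD and 54.9 and 20697 in FrE, and the 6 plasma cell markers to between 1082 and 1406 in FrD and 1098 and 23428 in FrE. Their part in the result was not tested. Without the 2 low-complexity WT libraries the changes were 1.36 (adjusted p = 0.0003675) and -2.75 (adjusted p = 1.147e-06, edgeR).

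Some counts of Xrcc6 may belong to a neighbour. Its annotated exons share 344 bases with exons of Desi1, which lies on the opposite strand, and whether counting used strand is unknown from the sources used here. Desi1 fell from WT FrD to FrE as well, by 1.75 ± 0.41 (log2, SE, adjusted p = 0.01473, edgeR), and stood at 0.77 ± 0.40 from FrC to FrD (adjusted p = 0.2976). How far reads from the shared bases moved either gene was not tested.

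In the mutants the spread of Xrcc6 in the early fractions was wider. Mutant mice 4, 5, 8, 9 and 10 stood at 177.3, 267.7, 184.7, 335.9 and 345.2 CPM in FrB and at 264.1, 270.1, 371.2, 9.3 and 774.8 CPM in FrC, the 2 extremes of FrC being low-complexity libraries. FrD gave 461.2, 376.8, 490.3, 476.6 and 604.4 CPM, and FrE 172.5, 210.4, 253.5, 308.7 and 299.7 CPM, where the value of mouse 9 rests on 13 counts. Every mutant FrE library lay below every mutant FrD library, as in WT, but the distance between the fractions was smaller. Levels that did not overlap, lower in FrE, were seen in 1.87% of genes in the mutants. The mutant change from FrD to FrE was -1.01 ± 0.50 (log2, SE, adjusted p = 0.9261, edgeR), with 0 of 7 end-joining genes called, 0 at an unadjusted p under 0.05, 0 by DESeq2, and 0% of 11197 genes called. Without the low-complexity libraries Xrcc6 stood at -1.03 and was called (adjusted p = 0.04264), in a fit that called 96 of 13076 genes. From FrC to FrD the mutant change was 0.13 ± 0.49 (log2, SE, adjusted p = 0.9461), with 0 of 7 genes called by either tool, 0 at an unadjusted p under 0.05 and 2.97% of all genes called. That value was 0.64 (adjusted p = 0.4102, edgeR) without the low-complexity libraries, 0.87 without mutant mouse 10, and -1.64 with spike-in (ERCC) scaling, where the median of all genes was -2.29.

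The difference between genotypes in the FrD to FrE step of Xrcc6 was 1.4 ± 0.58 (log2, SE, 95% interval 0.24 to 2.56, adjusted p = 0.3198, edgeR), so the smaller mutant fall did not pass over all genes. It was 1.75 ± 0.33 (adjusted p = 0.002587) without the low-complexity libraries, where 196 of 14133 genes were called. The Xrcc6 difference lay above 0 in all 16 alternatives fitted, from 0.75 to 1.75. In this difference, with all libraries, 0 of 7 genes were called, 1 had an unadjusted p under 0.05, DESeq2 called 0, and 0.153% of 12397 genes were called. Over all these genes 1270 had an unadjusted p under 0.05. The corresponding difference from FrC to FrD was -1.29 ± 0.57 (log2, SE, adjusted p = 0.2608), and -0.59 without mutant mouse 10. There 0 of 7 genes were called by either tool, 1 had an unadjusted p under 0.05 and 2.98% of all genes were called. Over all 12397 genes 1735 had an unadjusted p under 0.05.

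**Figure D2:**
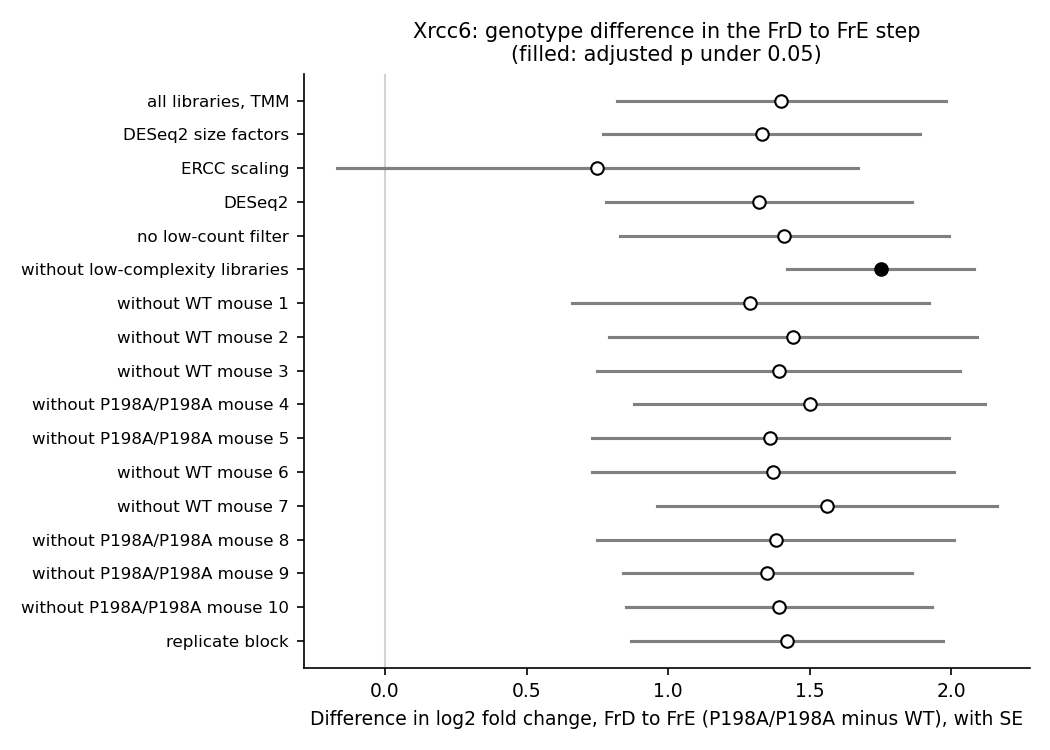
The genotype difference in the FrD to FrE change of Xrcc6 (x axis, difference of log2 fold changes, P198A/P198A minus WT, bars show the SE) with all libraries and under each of 16 alternatives (rows). All values lie above 0, from 0.75 with spike-in scaling to 1.75 without the low-complexity libraries, which is the only filled point (adjusted p under 0.05).

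Compared within a fraction, mutant Xrcc6 was lower in FrD and higher in FrE, neither past the threshold. In FrD 4 of 5 mutant libraries lay below all WT libraries, and the effect was -0.90 ± 0.25 (log2, SE, adjusted p = 0.5178, edgeR). Here 0 of 7 genes were called, 1 had an unadjusted p under 0.05, DESeq2 called 0, and 0.00996% of 10043 genes were called. Over all these genes 530 had an unadjusted p under 0.05. In FrE 3 of 5 mutant libraries lay above all WT libraries, with an effect of 0.51 ± 0.37, and of 0.84 ± 0.30 without the low-complexity libraries (log2, SE, adjusted p = 0.9993 and 0.4208). In FrB and FrC the effects were 0.09 ± 0.30 and 0.39 ± 0.61 (log2, SE), although mean CPM was lower in mutants, at 262 ± 79.9 in FrB and 338 ± 278 in FrC (SD, n = 5 each). The fit scales libraries by TMM factors and plain CPM does not, and with those factors the means were 278 ± 79.4 in mutant and 281 ± 38.1 CPM in WT FrB, and 365 ± 330 and 303 ± 68.0 CPM in FrC (SD, n = 5 each).

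Xrcc5 encodes Ku80, the other subunit of the heterodimer (ENSMUSG00000026187, chromosome 1, plus strand, 72307421 to 72394952). It did not share the FrD peak of its partner. In WT FrB it varied little, at 44.5, 48.1, 46.7, 42.3 and 50.9 CPM in mice 1, 2, 3, 6 and 7. WT FrC gave 50.9, 78.3, 56.3, 41.6 and 21.6 CPM, and WT FrD 22.3, 6.7, 3.0, 34.0 and 48.5 CPM. In WT FrE the values were 48.2, 53.6, 29.6, 41.0 and 14.6 CPM. FrD had the lowest mean, 22.9 ± 19.0 CPM (SD, n = 5), but the ranges of all neighbouring fractions overlapped. Its change from FrC to FrD was -0.94 ± 0.56 and from FrD to FrE 0.69 ± 0.56 (log2, SE, adjusted p = 0.3858 and 0.5374, edgeR). Relative to the other genes of a library, these were opposite in sign to Xrcc6 in both steps. With spike-in scaling both Ku genes fell from FrC to FrD, Xrcc5 by -4.09 and Xrcc6 by -1.13 (log2), where the median of all genes was -2.39.

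The level of Xrcc6 per kb relative to that of Xrcc5 therefore differed widely between the WT fractions. Its median was 3.55 in FrB, 3.90 in FrC, 16.4 in FrD and 1.86 in FrE, with ranges of 3.16 to 4.62, 2.00 to 9.04, 11.9 to 113.5 and 0.79 to 8.79. All 5 FrD libraries lay above all libraries of the other WT fractions. This is a description of RNA levels, with no test of its own, and it rests on few Xrcc5 counts in FrD of WT mouse 3, which had 19. In the mutants the medians were 24.7, 4.82, 14.8 and 10.9 in the same order, and 2, 2, 1 and 1 of the 5 libraries had 9 Xrcc5 counts or fewer.

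Mutant Xrcc5 was uneven. FrB gave 4.1, 66.5, 2.8, 18.2 and 0.4 CPM in mutant mice 4, 5, 8, 9 and 10, so that 4 of 5 lay below all WT libraries and mouse 5, the single FrB mutant library that was not of low complexity, above them. FrC gave 80.1, 32.0, 59.6, 0.6 and 0.3 CPM, with both values under 1 in low-complexity libraries. FrD ran from 0.1 to 36.1 CPM and FrE from 5.8 to 42.3 CPM. The genotype effect was -1.25 ± 0.95 in FrB, -0.38 ± 0.88 in FrC, -0.45 ± 1.05 in FrD and -1.12 ± 0.71 in FrE (log2, SE), none past the threshold, and that in FrB was 0.45 without the low-complexity libraries.

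**Figure D3:**
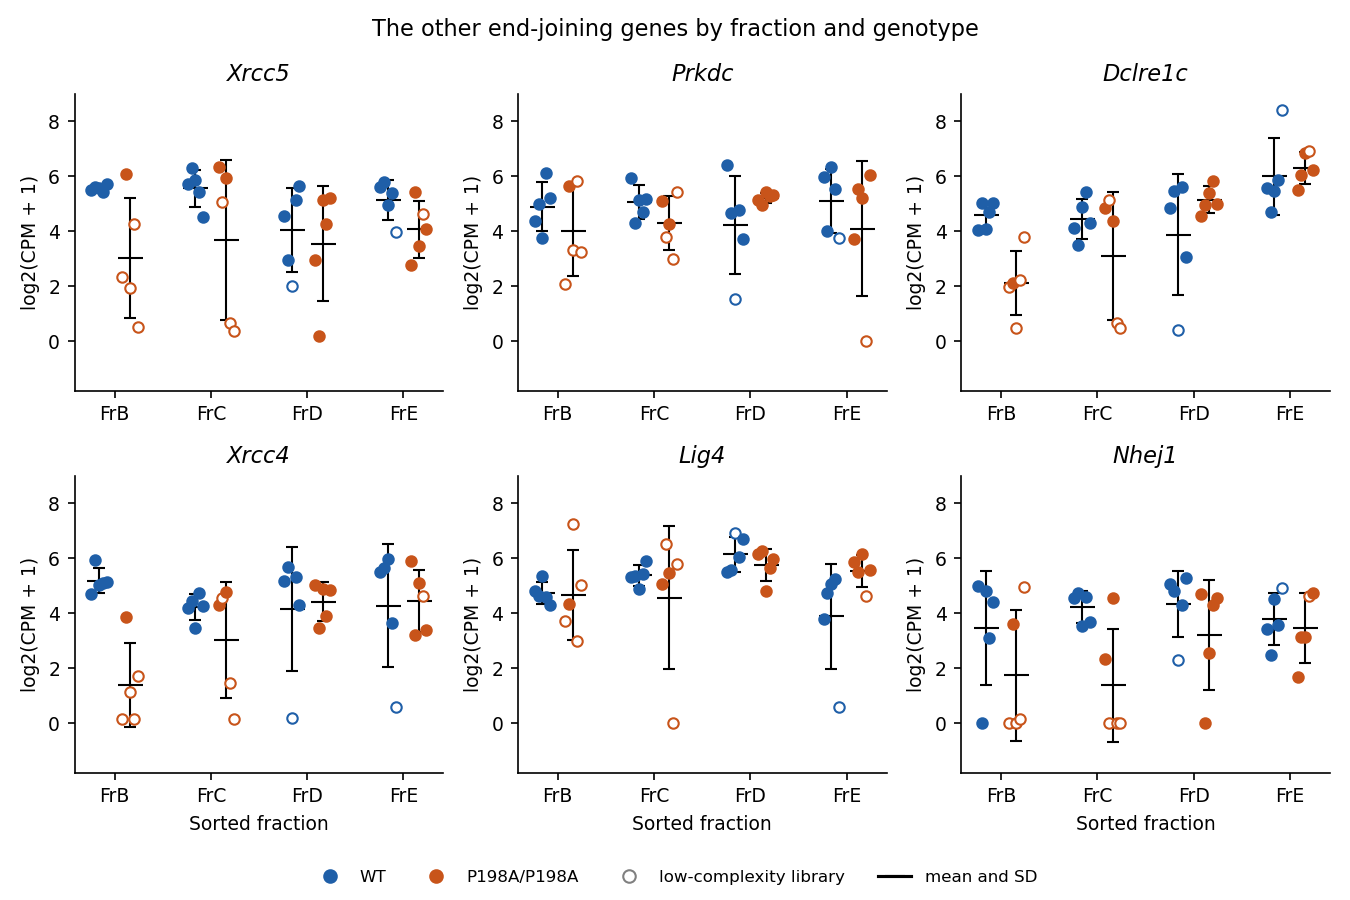
The other 6 end-joining genes as log2(CPM + 1) by fraction, with 1 point per library, blue for WT and orange for P198A/P198A, open for low-complexity libraries, and black bars for the mean and SD of 5 libraries; a point at 0 has no counts. The Dclre1c and Xrcc4 panels show all 5 mutant FrB libraries below all 5 WT FrB libraries, and the Lig4 panel shows all WT FrE libraries below all WT FrD libraries.

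Prkdc encodes DNA-PKcs, the kinase that Ku recruits (ENSMUSG00000022672, chromosome 16, plus strand, 15637866 to 15842235). It showed no ordered pattern over the fractions: WT means were 33.4 ± 21.6, 34.5 ± 15.9, 29.6 ± 31.7 and 42.3 ± 28.7 CPM in FrB, FrC, FrD and FrE (SD, n = 5 each). Single WT libraries ran from 1.9 CPM in FrD of mouse 3, a low-complexity library, to 83.5 CPM in FrD of mouse 1. The 3 WT steps were -0.06 ± 0.69, -0.07 ± 0.69 and 0.51 ± 0.70 (log2, SE). Mutant FrD was even, at 34.4, 29.5, 41.5, 37.8 and 38.9 CPM, while the other mutant fractions ran from 0 to 64.1 CPM, the 0 being FrE of mouse 9 with its 42111 total counts. There a count of 0 allows up to 71.2 CPM (3 counts, counting error only), so it is no sign of a low level. Genotype effects lay between -0.43 and 0.18 in the 4 fractions, with SE of 0.60 to 0.83 (log2). They were not stable to single mice: FrD stood at 1.07 without WT mouse 1 and FrB at -0.82 without mutant mouse 9.

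Dclre1c encodes Artemis, the nuclease that opens hairpin ends (ENSMUSG00000026648, chromosome 2, plus strand, 3424131 to 3464130). In FrB it was lower in every mutant library than in any WT library. WT FrB mice 1, 2, 3, 6 and 7 stood at 15.6, 31.7, 15.9, 24.9 and 31.3 CPM, and mutant FrB mice 4, 5, 8, 9 and 10 at 2.9, 3.4, 0.4, 3.7 and 12.9 CPM. The genotype effect in FrB was -2.14 ± 0.92 (log2, SE, adjusted p = 0.1715, edgeR), and DESeq2 gave -2.10 with an adjusted p of 0.034.

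Xrcc4 encodes the scaffold of the ligase complex (ENSMUSG00000021615, chromosome 13, minus strand, 89774027 to 90089608), and it too was lower in every mutant FrB library. WT FrB gave 25.1, 60.8, 31.2, 33.4 and 34.3 CPM, and mutant FrB 0.1, 13.5, 1.2, 0.1 and 2.3 CPM. The effect was -3.33 ± 1.14 (log2, SE, adjusted p = 0.0872, edgeR), and DESeq2 gave -3.28 with an adjusted p of 0.008127. It was called without mutant mouse 5 (-4.88, adjusted p = 0.01446) and stood at -1.52 (adjusted p = 0.3017) without the low-complexity libraries, which leaves mouse 5 as the only mutant library, assumed to vary like the WT ones. Of the 7 genes edgeR called 0 in FrB, 2 (Dclre1c and Xrcc4) had an unadjusted p under 0.05, and DESeq2 called the same 2. Over all 10562 genes 2524 had an unadjusted p under 0.05 and DESeq2 called 1749. With edgeR 7.37% were called, and levels that did not overlap, lower in the mutants, were seen in 8.27%.

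Other features of the FrB libraries moved with these values. Of the mutant FrB libraries 4 of 5 were of low complexity and of the WT libraries 0 of 5, and totals ran from 2490592 to 16693027 counts in mutants and from 12514009 to 16892841 in WT. All 6 plasma cell markers were detected, and their sum was 860 to 12476 CPM in mutant and 17459 to 52648 CPM in WT FrB, without overlap. The 11 granulocyte and monocyte markers, all detected, summed to 2574 to 58679 CPM in mutants and 128 to 11507 in WT. For the 9 erythroid markers the sums were 87.1 to 12303 CPM in mutants and 2273 to 23856 in WT. The 10 B-lineage markers summed to 7234 to 11908 CPM in mutants and 12949 to 16381 in WT, also without overlap. Their part in the lower Dclre1c and Xrcc4 was not tested. Single FrB libraries of both genes held as few as 1 count in mutants.

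Outside FrB neither gene separated the genotypes. Dclre1c in WT FrE stood at 46.2, 25.2, 42.6, 57.3 and 334.1 CPM, the last in the low-complexity library of mouse 7, and in mutant FrE at 44.5, 64.3, 112.5, 118.7 and 74.4 CPM. Its WT change from FrD to FrE was 2.22 ± 0.84 (log2, SE, adjusted p = 0.1165, edgeR), called by DESeq2 (2.53, adjusted p = 0.01646) and at 0.43 without the low-complexity libraries, which were FrE of mouse 7 and FrD of mouse 3. In 5 of 5 mutant mice Dclre1c was higher in FrE than in FrD, with overlapping ranges and a change of 1.15 ± 0.86 (log2, SE, adjusted p = 1). Xrcc4 in WT was lower in FrC than in FrB in 5 of 5 mice, at 17.4, 20.8, 10.1, 25.7 and 18.0 CPM in FrC, but with overlapping ranges and a change of -1.09 ± 0.86 (log2, SE, adjusted p = 0.9995, edgeR). Annotated exons of Dclre1c share 357 bases with Suv39h2 and those of Xrcc4 share 112 with Tmem167, both on the opposite strand. These neighbours stood at 0.09 ± 1.08 and -1.27 ± 0.70 in mutant FrB (log2, SE, adjusted p = 0.9719 and 0.2788).

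Lig4 encodes DNA ligase IV, which seals the joint (ENSMUSG00000049717, chromosome 8, minus strand, 9969049 to 9977686). In WT it had its highest mean in FrD, like Xrcc6, but no change passed the threshold. WT FrC stood at 39.0, 39.3, 28.4, 41.8 and 58.9 CPM in mice 1, 2, 3, 6 and 7, FrD at 43.9, 46.0, 118.8, 65.1 and 101.8 CPM, and FrE at 13.0, 25.7, 32.2, 36.6 and 0.5 CPM. All 5 mice were higher in FrD than in FrC, with overlapping ranges, and all 5 were lower in FrE than in FrD, without overlap. Levels that did not overlap, lower in FrE, were seen in 1.77% of genes. The highest FrD value, of mouse 3, and the lowest FrE value, of mouse 7 with 3 counts, came from low-complexity libraries. WT FrB ran from 18.7 to 39.9 CPM and overlapped both FrC and FrE.

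The WT change in Lig4 was 1.20 ± 0.61 from FrC to FrD and -2.03 ± 0.63 from FrD to FrE (log2, SE, adjusted p = 0.2881 and 0.06162, edgeR). With spike-in scaling the first of these was -1.13, where the median of all genes was -2.39. DESeq2 called the fall (-2.10, adjusted p = 0.005113), and so did edgeR without the low-complexity libraries, at a smaller size of -1.30 (adjusted p = 0.03439). In mutants FrD stood at 70.6, 76.3, 27.2, 48.4 and 60.9 CPM and FrE at 56.7, 43.9, 69.8, 23.7 and 46.9 CPM, a change of -0.18 ± 0.86 (log2, SE, adjusted p = 1), and the value of mouse 9 in FrE rests on 1 count. The difference between genotypes in that step was 1.86 ± 1.07 (log2, SE, 95% interval -0.30 to 4.03, adjusted p = 0.6186). In FrE 4 of 5 mutant libraries lay above all WT libraries, with an effect of 1.13 ± 0.78 (log2, SE, adjusted p = 0.9993). There edgeR called 0 of 7 end-joining genes and 0% of 9662 genes, 0 of the 7 had an unadjusted p under 0.05, and DESeq2 called 0. In mutant FrB and FrC Lig4 ran from 7.0 to 151.0 CPM and from 0 to 89.8 CPM.

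Nhej1 encodes XLF, which supports the ligase complex (ENSMUSG00000026162, chromosome 1, minus strand, 74967139 to 75125200). It was the gene most often without counts, at 0 in 7 of 40 libraries, 6 of them mutant. WT means were 17.1 ± 13.0, 18.8 ± 7.01, 23.9 ± 13.1 and 15.3 ± 10.1 CPM in FrB, FrC, FrD and FrE (SD, n = 5 each), and WT ranges overlapped throughout. In mutant FrC it stood at 4.0, 0.0, 22.5, 0.0 and 0.0 CPM, the 3 libraries at 0 being the low-complexity ones, and 4 of 5 lay below all WT libraries. The effect there was -1.67 ± 1.32 (log2, SE, adjusted p = 0.6907, edgeR), and it was -3.89 without mutant mouse 8 and -0.49 without the low-complexity libraries. In FrC edgeR called 0 of 7 end-joining genes and 0% of 10299 genes, 0 of the 7 had an unadjusted p under 0.05, and DESeq2 called 0. Other Nhej1 effects of genotype were -0.87 ± 1.62 in FrB, -0.89 ± 1.11 in FrD and -0.64 ± 0.97 in FrE (log2, SE), and that in FrB was -2.57 without mutant mouse 10.

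**Figure D4:**
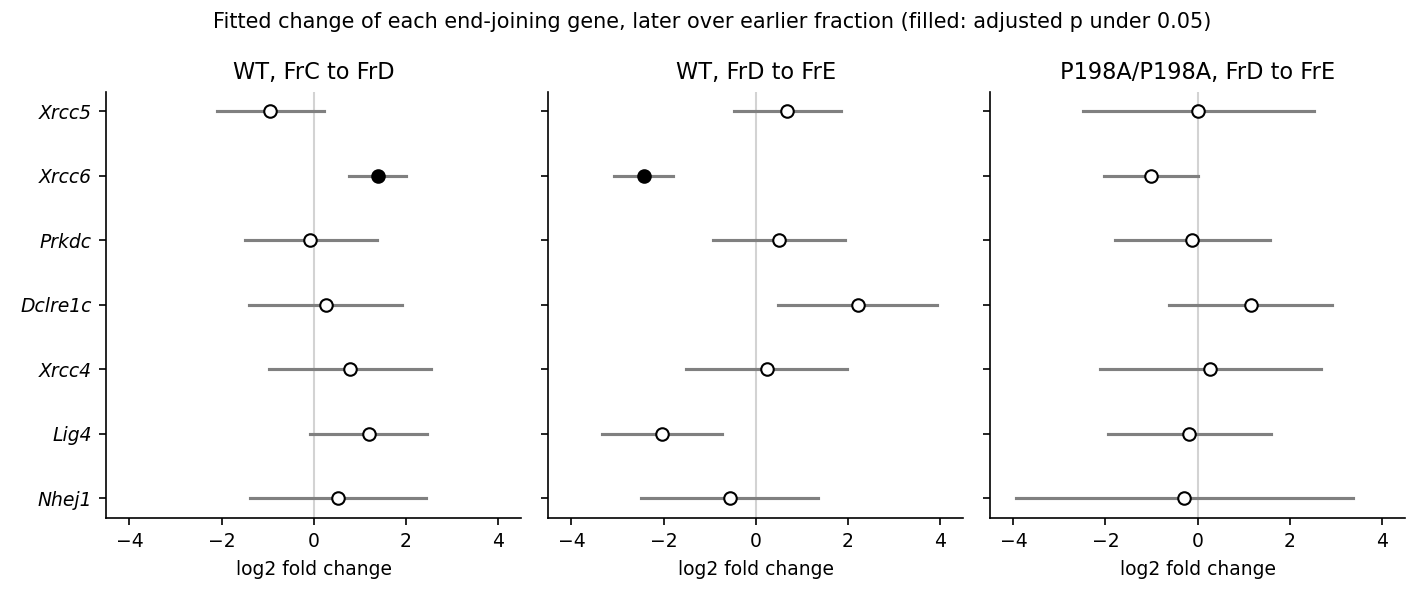
Fitted log2 fold changes (x axis, later over earlier fraction) of the 7 end-joining genes (rows) for the WT steps from FrC to FrD and from FrD to FrE and the P198A/P198A step from FrD to FrE, with 95% intervals. The filled points, Xrcc6 at 1.39 and -2.43 in WT, are the 2 values with an adjusted p under 0.05.

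Summed over the fractions of a mouse, the 7 genes gave no call. Effects of genotype were -0.59 ± 0.27 for Xrcc5 and -0.78 ± 0.35 for Xrcc4 (log2, SE, adjusted p = 0.2947 and 0.2848, edgeR), the 2 with an unadjusted p under 0.05, and lay between -0.59 and 0.15 for the others. DESeq2 called 0 of the 7 there, and 0.631% of 12036 genes were called by edgeR. Over all these genes 1997 had an unadjusted p under 0.05. From FrB to FrC edgeR called 0 of 7 in the mutants and 0% of 11197 genes, with 0 of the 7 at an unadjusted p under 0.05 and 0 by DESeq2. In the genotype difference of that step it called 0 of 7, against 0.524% of all genes. There 1 had an unadjusted p under 0.05, Xrcc4 at 3.30 ± 1.44 (log2, SE, adjusted p = 0.3162), and DESeq2 called 0. Over all 12397 genes 1590 had an unadjusted p under 0.05.

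Per kb, Xrcc6 had the highest mean level of the 7 RNAs in all 8 groups. Its share of their summed level per kb had WT medians of 57.6% in FrB, 61.0% in FrC, 75.1% in FrD and 39.8% in FrE, and mutant medians of 68.4%, 60.3%, 70.2% and 54.7%. In FrE the WT share ran from 22.9% to 42.2% and the mutant share from 51.5% to 56.3%, without overlap, and this was not tested. The mutant 56.3% is mouse 9, whose library of 42111 counts held 13 of Xrcc6. Next highest among the mutants was mouse 10 at 55.7%. Mean WT levels in FrD were 173 ± 54.4 CPM per kb for Xrcc6, 21.4 ± 11.8 for Nhej1, 14.4 ± 6.48 for Lig4, 8.96 ± 7.42 for Xrcc5, 6.82 ± 4.66 for Xrcc4, 2.71 ± 2.26 for Dclre1c and 2.24 ± 2.41 for Prkdc (SD, n = 5 each). In that order the ranges of single libraries were separate only between Xrcc6 and Nhej1. Libraries were primed with oligo-dT, and a level per kb of exon depends on which exons were read.

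Correlations among the 7 genes over the 20 WT libraries had both signs. The 21 pairwise Pearson correlations of log2 CPM ran from -0.78 to 0.62 with a median of 0.02, and without the 2 low-complexity libraries from -0.39 to 0.75. Xrcc6 and Lig4 gave 0.45 over 20 libraries and 0.75 over 18, the highest of the pairs in the smaller set, while Xrcc6 and Xrcc5 gave -0.44 and -0.34. Among all 11439 genes, the RNAs most like Xrcc6 were Uchl1, a ubiquitin hydrolase (r = 0.89), and Cxcr4, the receptor that holds B-lineage cells in the marrow (r = 0.88). Those most like Xrcc5 were Supt3 (0.93) and Tmem216 (0.89), and those most like Prkdc were Vcl (0.82) and Mia2 (0.79), while the other 4 genes had too few counts in some libraries for this description. Libraries of a fraction share its depth and complexity and those of a mouse share the animal, so these values are descriptions.

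Genes of the recombinase were called in the same WT steps as Xrcc6. From WT FrD to FrE 3 of 5 genes of the recombinase and its cofactors fell, Rag2 (-5.68 ± 0.80), Rag1 (-5.71 ± 0.83) and the DNA-bending protein gene Hmgb2 (-2.02 ± 0.44) with adjusted p of 0.0001507, 0.000195 and 0.009306 (log2, SE, edgeR), at a list median of -2.02 beside 0.01 for all genes. From WT FrC to FrD 1 of 5 rose, Rag1 by 3.60 ± 0.75 (log2, SE, adjusted p = 0.005542). Of all genes 5.32% were called from WT FrD to FrE and 5.23% from WT FrC to FrD. The genotype difference in the FrD to FrE step was called for Rag1 (4.79 ± 1.0) and Rag2 (5.12 ± 1.17, log2, SE, adjusted p = 0.03529 and 0.04945), where Xrcc6 was not called. In that difference 0.153% of all 12397 genes were called. The calls of Rag1 and Rag2 depended on the fit. With the mouse as a replicate block 0 of 12397 genes were called in that difference, and without WT mouse 2 0 of 12628. Without the low-complexity libraries 2 of 5 recombinase genes were called. The comparison of these steps between genes was not tested.

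With all libraries the other lists gave few calls. Of all genes 5.23% were called from WT FrC to FrD, 5.32% from WT FrD to FrE and 2.97% from mutant FrC to FrD. Of 8 accessory end-joining factors 1 rose from WT FrC to FrD, Polm, a polymerase that fills gaps at light chain joints (2.07 ± 0.57, log2, SE, adjusted p = 0.03315, edgeR), with a list median of 0.36 beside 0.09 for all genes, and 0 of 8 were called in the 13 other comparisons. Of 13 break response genes 1 fell in that step, Rad50 (-1.75 ± 0.50), a subunit of the break sensor MRN, and 1 from FrD to FrE, H2afx (-2.22 ± 0.36), whose histone is phosphorylated at breaks. The replication genes Rrm2 (-2.41 ± 0.53) and Pcna (-1.39 ± 0.41) also fell from WT FrD to FrE, 2 of 10 with 10 of 10 below 0. Leaving out the 2 low-complexity WT libraries put 3 of these 10 genes above 0 and kept 7 under it. Of the 10, 3 were then called, all lower, at a list median of -0.69. From WT FrC to FrD the same omission gave 4 of 10 called, all lower, at a list median of -1.02, beside 1874 of all 11657 genes. In the mutant step from FrD to FrE 10 of 10 lay below 0 with all libraries, at a list median of -2.19 with 0 called. That median was -2.35 without the low-complexity libraries. In the mutants Mcm2, a subunit of the replicative helicase, fell from FrC to FrD (-4.51 ± 1.16), 1 of 10, and 0 of 10 were called there without the low-complexity libraries.

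In mutant FrB the genes of alternative end joining, which can join ends where the core pathway is absent, stood higher. Of 6 genes 3 rose, Parp1 by 1.80 ± 0.40, Lig1 by 1.68 ± 0.39 and Xrcc1 by 1.82 ± 0.52 (log2, SE, adjusted p = 0.01588, 0.0187 and 0.04605, edgeR), and all 6 lay above 0, at a median of 1.43 beside 0.11 for all genes. Of all genes 7.37% were called in FrB, 596 of those 778 higher. All 3 also serve ordinary replication or single-strand repair. Rag1 (2.21 ± 0.55) and the replication genes Mcm2 (1.69 ± 0.35) and Mcm5 (1.5 ± 0.37) rose too, 2 of 10 for replication. Rag1 went against most of its list, where 3 of 5 recombinase genes lay below 0 at a median of -0.86. Of the replication genes 6 lay above 0 and 4 below, at a median of 0.34. Without the low-complexity libraries 0 of the 6 alternative end-joining genes, 0 of 5 recombinase genes and 0 of 10 replication genes were called, and the medians were 0.59, -0.09 and 0.13 beside -0.16 for all genes, with a single mutant library left. That fit called 152 of 12697 genes, 16 of them higher.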

How the data were processed

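RNA was counted in 40 libraries prepared by Smart-seq2 and Nextera XT, and the labels' protocols say that cells were lysed with ERCC spike-ins. The authors deposited a table of raw read counts per gene, and per the submitters' processing notes the tools were HISAT2 2.1.0, featureCounts 1.4.6 and DESeq2 with build mm10. Annotation release and strand setting are not stated there. Positions and exon lengths came from GENCODE M21 (GRCm38), which held 21728 of the 21958 genes. The reads were amplified and carry no molecular identifiers, so a floor covers counting error only.

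The main test was edgeR's quasi-likelihood test (version 4.0.16, R 4.3.3), two-sided, on endogenous genes that passed filterByExpr, with TMM factors and a robust fit, and p-values were adjusted by Benjamini-Hochberg over all genes tested. Genotype effects (P198A/P198A minus WT) were fitted on the 10 libraries of a fraction, effects over fractions on counts summed per mouse, steps (later minus earlier) on the 20 libraries of a genotype, and differences in step on all 40. The method was also run on simulated counts, with the same spread for a gene in every library. Low-complexity libraries were not modelled, so that run does not show how the test behaves with them. Alternatives were DESeq2 size factors, ERCC scaling, DESeq2 1.42.0, no filter on low counts, leaving out low-complexity libraries or each mouse, the second index as a covariate, a joint fit and a replicate block. Mouse numbers pair libraries across fractions because they name the animal, and deviations of the same mouse in consecutive fractions correlated by a median of -0.02 to 0.06.

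All 7 members were named throughout, with genes of the fixed pathway lists where called (at most the 5 of lowest p), and for each member with a count of at least 10 in all WT libraries the 2 genes of highest correlation. Shld3 of the break response list was not matched. The members and lists were chosen with earlier results of these data known. Results for some listed genes are not reported here.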

Additional observations from a re-analysis of the deposited data

Results flagged for a closer look

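In 8 of the 56 groups of 5 libraries (7 genes, 8 groups each) 1 library stood far from the other 4 by Dixon's criterion on CPM. Chance gives about 1 such group in 20 where values are normal and groups independent. Here the genes share libraries and a normal spread of CPM was not checked, so the 8 cannot be set against that rate. Of these libraries 3 were of low complexity. Dclre1c stood at 334.1 CPM in WT FrE of mouse 7 and at 12.9 CPM in mutant FrB of mouse 10, and Lig4 at 151.0 CPM in mutant FrB of mouse 8, all 3 in low-complexity libraries. The others were Xrcc6 in WT FrD of mouse 7 (1198.9 CPM), Xrcc5 and Xrcc4 in mutant FrB of mouse 5 (66.5 and 13.5 CPM), Xrcc4 in WT FrB of mouse 2 (60.8 CPM) and Nhej1 in mutant FrC of mouse 8 (22.5 CPM). Each was the highest of its group. In mutant FrB, mouse 5 was the only library that was not of low complexity.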

How the results depend on the processing

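The counts of end-joining genes called kept within 1.5 times of the reported number in 189 refits and left that range in 9. Outside the WT steps from FrC to FrD and from FrD to FrE the reported number was 0. There a refit kept it by calling 0 again, and many such refits, as in FrC, called 0 of all genes. The 189 therefore say little about stability. In FrB, where 0 were called, DESeq2 called 2, and leaving out 1 mouse gave 0 to 1 (Xrcc4, without mutant mouse 5). From WT FrC to FrD ERCC scaling called 3 genes (Xrcc5, Prkdc and Dclre1c, all lower), as it did 6636 of all 11439 genes, 6596 lower, and leaving out 1 mouse gave 0 to 1 (0 without WT mouse 2). From WT FrD to FrE ERCC scaling called 0, DESeq2 3 and the fit without low-complexity libraries 2, beside 239 of 11439, 1472 of 11439 and 1038 of 11657 genes in all. That fit called 1 (Xrcc6) in the mutant step from FrD to FrE, beside 96 of 13076 genes in all. In the genotype difference of that step it called 1, beside 196 of 14133 genes. Under ERCC scaling Xrcc6 (-1.13) and Dclre1c (-2.15) reversed from WT FrC to FrD, where the median of all genes was -2.39, and Lig4 (-1.13), Xrcc4 (-1.58) and Nhej1 (-2.09) changed sign with no call either way. With the replicate block Xrcc6 stood at 1.33 (adjusted p = 0.01306, edgeR) and -2.47 (adjusted p = 0.0002456) in the WT steps, and the block changed no call among the 7 genes. In the alternative without low-complexity libraries FrB kept 1 mutant library, assumed to vary like the others, and the sum of mutant mouse 9 held FrD alone. Depth limits FrE of mutant mouse 9, where a count of 0 allows 71.2 CPM. A p that missed the threshold does not show equal levels, as the wide SE of Nhej1 and Xrcc4 in mutants show.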
